A study of Mus musculus with 4 samples.

Results

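Hox genes encode homeodomain transcription factors that give cells along the head-to-tail axis of the body their regional identity. In the mouse they lie in 4 clusters, Hoxa, Hoxb, Hoxc and Hoxd, and are numbered by position: genes with low numbers are active from the hindbrain backwards, and genes with high numbers only towards the tail and in the limbs. Adult mesenchymal cells, smooth muscle cells of the aorta among them, keep a Hox pattern that reflects where in the body they were formed. The members described here are the rows of the deposited table whose symbol is Hoxa, Hoxb, Hoxc or Hoxd followed by a number. There were 38 such rows among 39179; of the 39 mouse Hox genes, Hoxd4 was not analysed here.

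The 4 RNA-seq libraries are described as primary aortic smooth muscle cells of the mouse, and their titles name the aorta. Of these, 2 are from mice with a smooth muscle knockout of Yap and Taz (labelled Sm-Yap/Taz-KO) and 2 from wild-type mice. Yap and Taz are the transcriptional co-activators at the end of the Hippo pathway, encoded by Yap1 and Wwtr1. Both genotypes are labelled with tamoxifen injection and 18 days, in a wording that does not tell the length of treatment from the time after it. The labels used here do not give the Cre driver, the alleles, the age of the mice or the segment of the aorta, nor whether each library is a separate animal. The p-values therefore cover the spread between these samples alone, and that spread may be technical.

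The values are normalized read counts, rounded to whole numbers, and each pair of values below gives replicate 1 and then replicate 2. From the pattern of values that rounding leaves out, 12300000 and 11800000 reads on genes were estimated for the knockout and 15600000 and 16800000 for the wild type, a shallower depth in both knockout libraries. Yap1 had 947 and 962 normalized counts in the knockout libraries against 1966 and 1877 in wild type, a log2 difference of -1.01 (SE 0.10, limma adjusted p = 0.0080), and Wwtr1 2848 and 2466 against 3423 and 4016 (-0.48, SE 0.13, limma adjusted p = 0.055). The 12 smooth muscle contractile genes examined were all detected, with summed values of 171085 and 133456 in the knockout libraries against 462695 and 435449 in wild type, and 10 of them fell while Actg2 rose. Markers of other cells of the vessel and its surroundings were present in every library, so the libraries do not hold RNA of smooth muscle cells alone. The 12 macrophage markers summed to 13578 and 17791 in the knockout and to 1303 and 3598 in the wild type, and all 12 rose. One of them, Fcgr1, has a wild-type mean of 7.5 and passed the filter (a mean of at least 10) only through its knockout values. The 10 adipocyte markers summed to 12015 and 11086 against 1437 and 4150 (7 of 9 tested rose, Elovl3 at 0 in all libraries), the 10 fibroblast markers to 179729 and 190015 against 46447 and 107399 (2 of 10 rose), and the 10 endothelial markers to 12775 and 11031 against 4695 and 7084 (5 of 10 rose). Most of each fibroblast sum is Col1a1 (128268 and 150818 against 33730 and 81139), which was not called. Schwann cell and neuron markers summed to 758 and 846 against 244 and 542, and 1 of 6 tested rose. No striated muscle (257 and 188 against 173 and 248, 6 tested), lymphocyte (54 and 93 against 18 and 20, 1 tested) or mesothelial marker (1 and 21 against 1 and 8, 0 tested, Upk1b at 0) passed. In bulk RNA, fewer cells of a type and less RNA per cell cannot be told apart. The part of these marker differences in the Hox values below was not tested.

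In both genotypes a broad set of Hox genes was expressed, and those numbered 11 or above were at low values or at 0. Of the 38 members, 7 were at 0 in all 4 libraries (Hoxb1, Hoxb13, Hoxc12, Hoxc13, Hoxd1, Hoxd12 and Hoxd13), and 26 had a mean normalized count of at least 10 and were tested. All 14 central genes, numbered 4 to 8, were tested, against 6 of 8 anterior genes (1 to 3) and 6 of 16 posterior genes (9 to 13). The 5 that were detected but fell below the filter were Hoxa11, Hoxa13, Hoxc11, Hoxd10 and Hoxd11. The largest value of these in any library was the 18 of Hoxc11 in knockout replicate 1, where the other 3 libraries held 1, 5 and 2. Hoxa11 was at 5 and 3 in the knockout libraries against 6 and 7 in wild type, and an antisense gene, Hoxa11os, covers 35% of its exon length. These 5 genes were not tested.

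**Figure D1:**
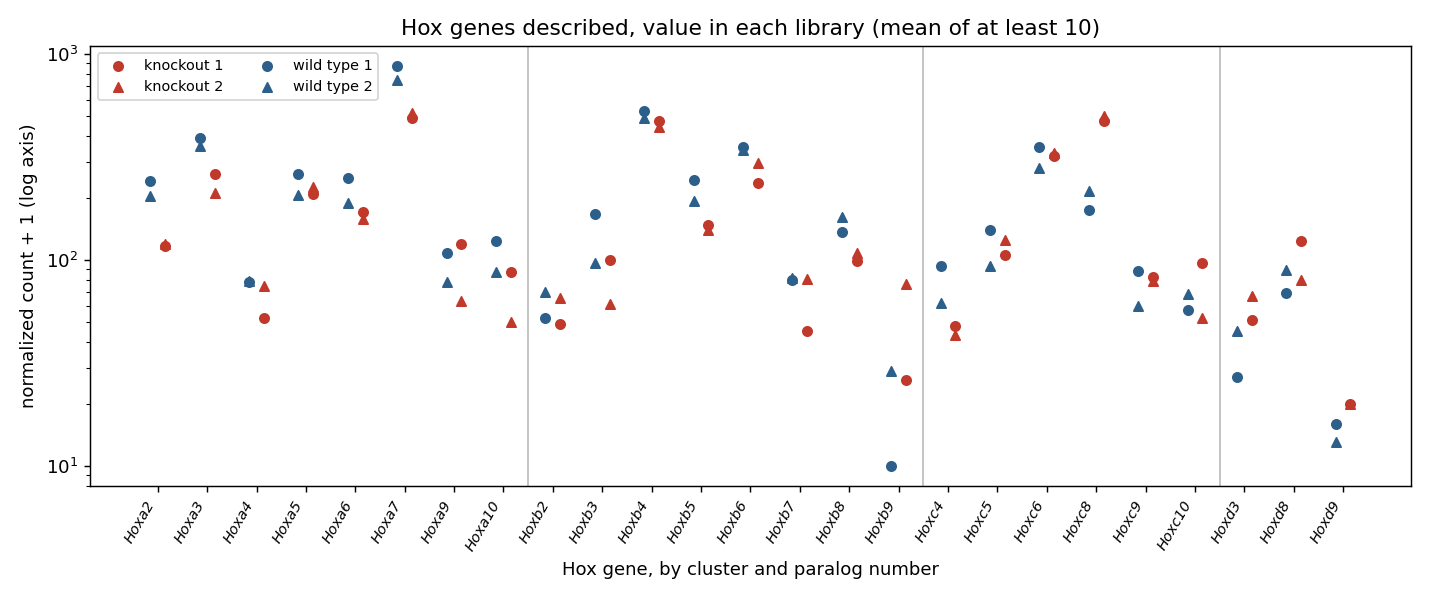
Normalized count plus 1, on a log axis, of the tested Hox genes described here (mean of at least 10), ordered by cluster and paralog number (grey lines part the clusters). Each point is 1 library, with knockout in red and wild type in blue, circles for replicate 1 and triangles for replicate 2. Hoxa7 is at 487 and 517 in the knockout libraries and 873 and 747 in the wild type, and Hoxc8 is the gene whose knockout values stand clearest above the wild type.

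Levels of different genes were compared per kilobase of exon, that is, as normalized counts divided by the summed exon length of each gene. In the wild type the level per kilobase was highest for Hoxa7, at 304 and 260, followed by Hoxa6 at 286 and 215. These 2 neighbours overlapped between libraries. Hoxb4 came next at 207 and 191, then Hoxb6 at 180 and 173, and for neither did the libraries overlap with the gene before it. Below them lay Hoxc6 (mean 131), Hoxa2 (125) and Hoxa5 (124), whose ranges overlapped. In the knockout Hoxa6 (193 and 178), Hoxb4 (183 and 172), Hoxa7 (169 and 180) and Hoxc8 (166 and 176) led the order. Neighbours among these 4 overlapped, so their order is not resolved. Hoxc8 stood in 9th place in the wild type and in 4th place in the knockout. Every member of the Hoxd cluster lay at a mean of 36.6 per kilobase or below in both genotypes, with Hoxd8 the highest.

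**Figure D2:**
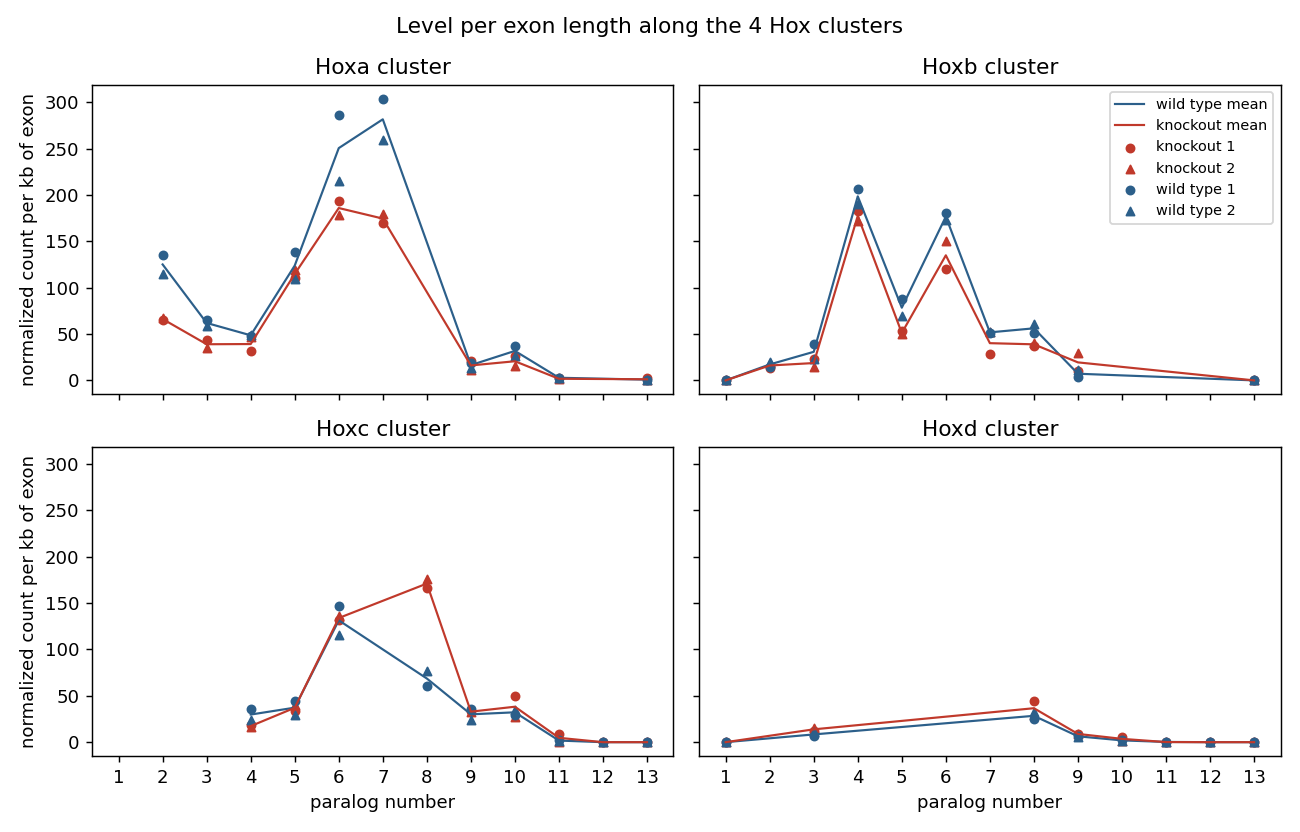
Normalized count per kilobase of exon against paralog number in each Hox cluster. Points are libraries (red knockout, blue wild type) and lines join the group means of the genes described here. The Hoxa, Hoxb and Hoxc profiles peak between numbers 4 and 8 in both genotypes and lie near 0 from number 11 on.

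The comparison of knockout with wild type asks whether the Hox pattern of these aortic samples differed when Yap and Taz were deleted. Of the 26 tested members 1 rose, Hoxc8, and 3 fell, Hoxa2 and Hoxa7 among them, at a limma adjusted p under 0.05 over all 15058 genes tested. The other 22 tested members did not pass. Over all tested genes, 6.7% were called lower, 9.58% higher and 16.3% in either direction, and the 4 called Hox genes are 15.4% of the 26 tested, a share near that background. The median log2 difference of the 26 was -0.25, against -0.023 over all tested genes. For 11 members the groups did not overlap and the knockout was lower, and for 3 it was higher. Over all genes the corresponding shares were 32.1% and 30.7%, and the groups did not overlap for 62.8% of genes against 53.8% of the tested Hox genes. The sign of the log2 difference was negative for 17 of 26 members, against 52.1% of all tested genes. It was negative for 17 to 21 members after rescaling the libraries to the same total, by upper quartiles or by quantile normalization. The summed normalized count over all 38 members was 4010 and 3963 in the knockout libraries against 4949 and 4352 in wild type. The knockout sums were thus below the wild-type sums in the values as deposited. The totals over all rows were also lower, at 13861333 and 13279332 against 14235444 and 14519178, and the Hox sums were not rescaled.

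The calls depend on the full set of libraries. When knockout replicate 1, knockout replicate 2 or else wild-type replicate 1 was left out, limma called no gene in the whole table. Each of these fits leaves 1 library in a group. With all libraries, 6 of the 26 tested Hox genes had an unadjusted limma p under 0.05, against 4898 of all 15058 tested genes. Without wild-type replicate 2, Hoxc8 was the 1 Hox gene called (log2 difference 1.48, limma adjusted p = 0.0416), with adjusted p-values of 0.0724 for Hoxa7 and 0.0977 for Hoxa2. Limma called no gene either without the filter on low values or without the intensity trend, where the adjusted p of Hoxc8 was 0.0920 and 0.0745.

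**Figure D3:**
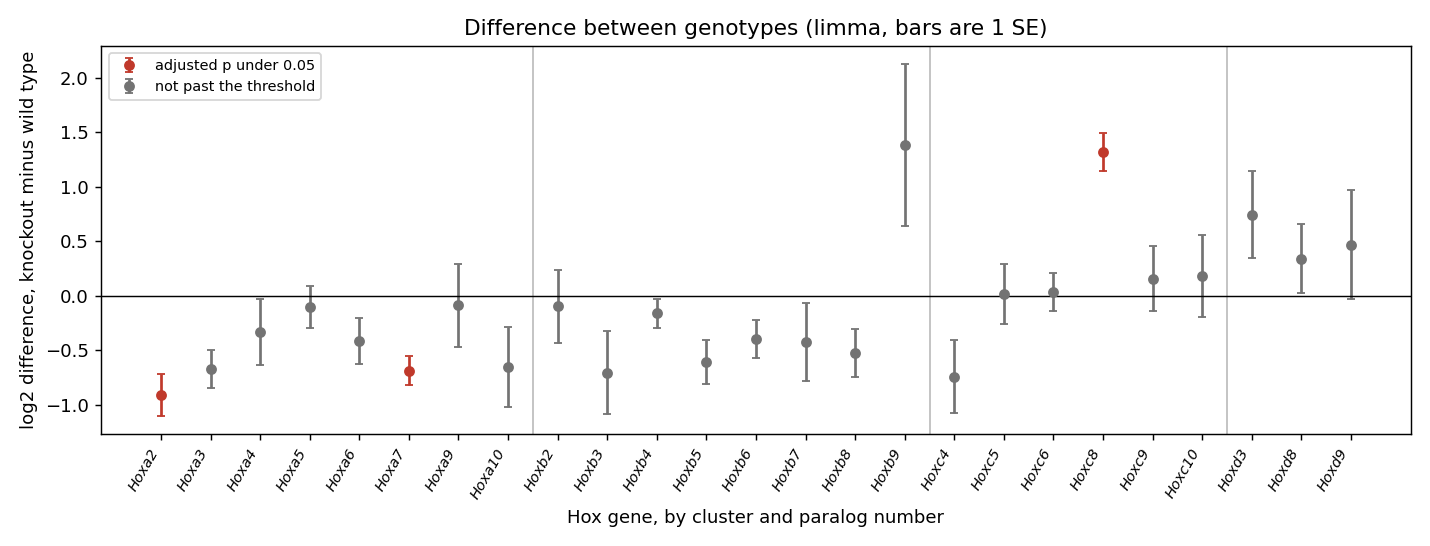
Log2 difference, knockout minus wild type, on the log2(value + 1) scale for the tested Hox genes described here, ordered by cluster and paralog number. Bars are 1 SE from limma and red marks an adjusted p under 0.05. The Hoxa values all lie below 0, and Hoxc8 stands at 1.32 with an SE of 0.17.

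In the Hoxa cluster (chromosome 6, GRCm38, minus strand) the log2 difference was below 0 for every member described here, also under each of the rescalings. Hoxa2 (52162417 to 52164831), the gene that specifies the second pharyngeal arch, had 116 and 119 normalized counts in the knockout libraries against 241 and 203 in wild type. The groups did not overlap, and Hoxa2 fell 1.89-fold (log2 difference -0.91, SE 0.20, limma adjusted p = 0.031). An annotated gene on the same strand without values here, Gm28308, covers 15% of the exon length of Hoxa2, so its reads may be shared. Hoxa7 (52214491 to 52221854), a central gene active in the trunk, had 487 and 517 against 873 and 747, and it fell 1.61-fold (-0.69, SE 0.13, limma adjusted p = 0.025). It has the highest count of any Hox gene in both wild-type libraries. An antisense gene, Hoxaas3, covers 20.4% of the exon length of Hoxa7. The strand setting of the counting is not given in the sources used here, so reads of such partners cannot be told apart. Hoxaas3 itself was at 67 and 35 in the knockout libraries against 48 and 30 in wild type.

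The promoter sequences of Hoxa2 and Hoxa7 are shown because these are the called members with an entry in the RefSeq promoter table (GRCm38.p6), in which 21 of the 38 members were found. Sequences run 5′ to 3′ on the strand of the gene, from 250 bases before the RefSeq transcription start, and stop at the start or at an annotated exon. The Hoxa7 window, of 112 bases, lies within the annotated span of Hoxa7 (52214491 to 52221854), so it precedes that RefSeq start and not the whole gene. Capitals mark TGATTNAT, a site bound jointly by Pbx and Hox proteins, in Hoxa2, where it is read on the other strand, and TTTATG, a site of the Cdx factors, in Hoxa7.
Hoxa2 (chr6:52164832-52165081, minus strand): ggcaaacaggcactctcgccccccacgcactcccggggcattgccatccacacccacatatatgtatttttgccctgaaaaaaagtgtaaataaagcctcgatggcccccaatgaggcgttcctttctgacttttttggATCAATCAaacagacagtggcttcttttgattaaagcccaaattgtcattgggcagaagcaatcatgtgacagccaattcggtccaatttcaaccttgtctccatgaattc
Hoxa7 (chr6:52218712-52218823, minus strand): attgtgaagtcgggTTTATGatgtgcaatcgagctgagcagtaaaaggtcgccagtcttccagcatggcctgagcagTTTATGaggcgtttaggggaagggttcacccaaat
In the 250 bases before the start, searched on both strands, TGATTNAT was found in 2.82% of all promoters of the table. Of the 21 Hox genes, 2 had it in a promoter, Hoxa2 and Hoxd11. The percentages count promoters and the Hox figures count genes, which may have several promoters, so they are not like for like. TTTATG was found in 10.8% of all promoters and in 4 of the 21, Hoxa7 (at 2 places), Hoxb8, Hoxd3 and Hoxd11. GGAATG, the site of the TEAD factors through which Yap and Taz act, was found in 12.6% of all promoters and in 1 of the 21, Hoxa9. A match describes these letters in this window and is not a measured binding site.

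The other Hoxa genes described here did not pass. Hoxa3, another pharyngeal arch gene, was at 259 and 210 in the knockout libraries against 390 and 355 in wild type, without overlap, and just missed the threshold (log2 difference -0.67, SE 0.17, limma adjusted p = 0.0501). The adjusted p of Hoxa3 lay under 0.05 in 5 of the other settings that used all libraries and over it in 4. Exons of 5 other genes overlap parts of those of Hoxa3, each up to 8.36% of its exon length. Hoxa6 had 169 and 156 against 250 and 188, also without overlap (-0.41, SE 0.21). For Hoxa4 the values were 51 and 74 against 77 and 78, with knockout replicate 2 close to the wild type. Hoxa5, a gene of the lung and of the cervical and thoracic axis, was at 207 and 224 against 259 and 206 (-0.10, 95% interval -0.56 to 0.36). The groups overlapped for Hoxa5, as they did for the posterior genes Hoxa9 (118 and 62 against 107 and 77) and Hoxa10 (86 and 49 against 122 and 86). In both of these, replicate 1 was above replicate 2 in each genotype, and the spread within a group exceeded the difference between the groups for Hoxa9. The sign of the log2 difference turned for Hoxa5 without wild-type replicate 1 (0.064). For Hoxa9 it turned without wild-type replicate 1 (0.15) and without knockout replicate 2 (0.37).

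In the Hoxb cluster (chromosome 11, plus strand) no tested member passed, and the log2 difference was below 0 for 7 of 8. Hoxb4, at 470 and 441 in the knockout libraries against 530 and 489 in wild type, had the highest normalized counts of the cluster. Its groups did not overlap, yet the difference was small (log2 difference -0.16, 95% interval -0.48 to 0.16). Hoxb5 had 147 and 138 against 244 and 193 (-0.60, SE 0.20, limma adjusted p = 0.097). The neighbouring Hoxb6 had 235 and 295 against 354 and 340 (-0.40, SE 0.17, limma adjusted p = 0.174). Hoxb8, at 98 and 107 against 135 and 161, likewise lay lower in both knockout libraries (-0.52, SE 0.22). The libraries overlapped for the other 4. Hoxb2 was at 48 and 64 against 51 and 69, and Hoxb7 at 44 and 80 against 79 and 81. Hoxb3 had 99 and 60 against 166 and 96, and the antisense gene Hoxb3os covers 52.9% of its exon length and 27.3% of that of Hoxb2. Hoxb3os, which was counted separately, had 140 and 90 against 171 and 159, so it too lay lower in both knockout libraries (-0.55, SE 0.27, limma adjusted p = 0.219). The posterior gene Hoxb9 was the exception in sign, at 25 and 75 in the knockout libraries against 9 and 28 in wild type. Replicate 2 was about 3 times replicate 1 in both genotypes, and the difference did not pass (1.38, SE 0.75, limma adjusted p = 0.26).

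The Hoxc cluster (chromosome 15, plus strand) held the member that rose. Hoxc8 (102990607 to 102994111), a gene of the mid-trunk that patterns thoracic vertebrae and motor neurons, had 471 and 498 normalized counts in the knockout libraries against 173 and 216 in wild type. Both knockout libraries were far above both wild-type libraries, a 2.49-fold rise from 194 ± 30.4 to 484 ± 19.1 (SD, n = 2) with a log2 difference of 1.32 (SE 0.17, 95% interval 0.90 to 1.74, limma adjusted p = 0.011). No other gene in the annotation overlaps its exons. The neighbours of Hoxc8 on either side did not pass. Hoxc6 was at 317 and 328 in the knockout libraries against 354 and 279 in wild type (log2 difference 0.037, 95% interval -0.38 to 0.46), and Hoxc9 at 82 and 78 against 87 and 59 (0.16, 95% interval -0.58 to 0.89). The sign of both, and of Hoxc5 and Hoxc10, turned in at least 1 rescaling. Hoxc5 had 105 and 124 against 138 and 92, and Hoxc10 95 and 51 against 56 and 67. These 2 genes share 166 bases of annotated exon on the same strand, whose reads cannot be told apart. Hoxc4, the most anterior gene of the cluster, had 47 and 42 against 92 and 61 and was the 1 tested Hoxc gene with both knockout values below the wild type (-0.74, SE 0.33, limma adjusted p = 0.187).

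In the Hoxd cluster (chromosome 2, plus strand) 3 members were tested, none passed, and all had a log2 difference above 0. Hoxd3 was at 50 and 66 in the knockout libraries against 26 and 44 in wild type (0.75, SE 0.40, limma adjusted p = 0.257), without overlap. A further annotated gene on the same strand, not in the table, covers 53.1% of the exon length of Hoxd3, so its reads may be shared. Hoxd8 had 122 and 79 against 68 and 88, and Hoxd9 19 and 19 against 15 and 12. The difference in Hoxd9 was smaller than its SE (0.47, SE 0.50).

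The shares of the clusters and paralog groups in the Hox level were compared as well. Of the summed level per kilobase, the Hoxa cluster held 40.4% and 39.3% in the knockout libraries against 50.5% and 47.4% in wild type, and the Hoxc cluster 26.8% and 25.7% against 17.1% and 16.8%. Neither pair of groups overlapped. Without Hoxc8 the Hoxc cluster summed to 276 and 252 per kilobase in the knockout libraries against 295 and 230 in wild type, which overlapped. These are sums, and the Hoxc share without Hoxc8 was not computed. The Hoxb share, 28.4% and 31.6% against 30.4% and 33%, did overlap. The Hoxd cluster held 4.33% and 3.3% against 1.94% and 2.76%. By paralog number, the anterior genes made up 9.63% and 9.04% in the knockout libraries against 13.3% and 13% in wild type, a difference of -3.79 percentage points. The posterior genes made up 10.3% and 7.59% against 6.75% and 6.76%, a difference of 2.17 percentage points that was 0.837 without knockout replicate 1 and 3.51 without knockout replicate 2. The central genes held 80.1% and 83.4% against 80% and 80.3%, which overlapped, with a difference of 1.62 percentage points that was 3.25 without knockout replicate 1 and -0.010 without knockout replicate 2. With the length of the longest transcript (78.2% and 82.1% against 77.8% and 78%) or no division by length (74.1% and 78.3% against 73.3% and 74%) the central shares did not overlap. With 2 libraries a group the exact two-sided permutation test cannot give a p below 0.333, the value reached for the anterior and posterior shares (0.667 for the central share), so these differences were not tested beyond their lack of overlap. Shares within 1 sum are not independent: the sum of the Hoxc cluster per kilobase was 443 and 428 against 356 and 306, and that of the Hoxa cluster 667 and 653 against 1052 and 861.

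**Figure D4:**
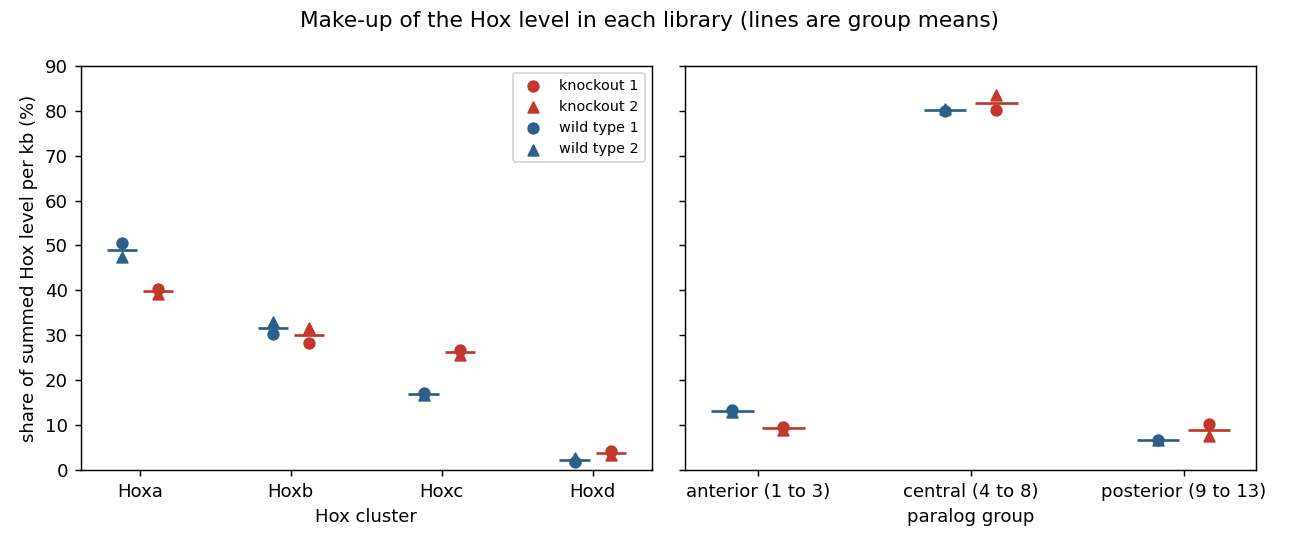
Share, in percent, of the summed Hox level per kilobase held by each cluster (left) and by anterior, central and posterior genes (right). Points are libraries and short lines are group means (red knockout, blue wild type). The Hoxa share is lower and the Hoxc share higher in both knockout libraries, while central genes hold 80% or more in every library.

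The called genes Hoxc8, Hoxa2 and Hoxa7 were also read within each genotype, where the marker sums differed between libraries. Macrophage, adipocyte and fibroblast marker sums were each more than 2 times as high in wild-type replicate 2 as in wild-type replicate 1. Between these same libraries, replicate 2 minus replicate 1 on the log2(value + 1) scale was 0.32 for Hoxc8, -0.25 for Hoxa2 and -0.22 for Hoxa7. Each of these differences had the sign of the difference between the genotypes and was smaller than it. The median absolute difference between these 2 libraries over the 26 tested Hox genes was 0.34, larger than each of the 3. Between the knockout libraries the differences were 0.080 for Hoxc8, 0.037 for Hoxa2 and 0.086 for Hoxa7. For Hoxa2 and Hoxa7 that sign is opposite to the sign between the genotypes. Whether the marker differences play a part in the Hox differences was not tested.

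Inside the clusters lie genes of other kinds, among them antisense RNAs and microRNAs. Of the 12 such genes with a mean of at least 10, 0 passed in limma (lowest adjusted p 0.195). None had an unadjusted p under 0.05, against 4898 of all 15058 tested genes. Of the 12, 4 were lower in both knockout libraries, a share near the 32.1% of all tested genes. Besides Hoxb3os these were Hotairm1 (10 and 16 against 24 and 24), and 2 genes on the other strand within the span of Hoxa3, Gm15050 (70 and 74 against 111 and 98) and 5730596B20Rik (183 and 196 against 269 and 222). The difference in Hotairm1 was less than 2 times its SE (log2 difference -0.87, SE 0.51, limma adjusted p = 0.296). Hotair, the long RNA of the posterior Hoxc cluster, was at 0 and 2 against 1 and 3. The microRNAs of the miR-10 and miR-196 families, which lie in the clusters and are known to repress Hox messages, are shown here because each family shares 1 seed, with the seed (bases 2 to 8) in capitals and the sequences as RefSeq gives them.
miR-10a-5p: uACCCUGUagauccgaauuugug
miR-10b-5p: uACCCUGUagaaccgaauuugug
miR-196a-5p: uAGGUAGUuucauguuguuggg
miR-196b-5p: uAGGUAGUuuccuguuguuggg
The miR-10 pair, from the Hoxb and Hoxd clusters, has 1 seed, and the miR-196 pair, from the Hoxa, Hoxb and Hoxc clusters, has the other. The genes Mir10a, Mir10b, Mir196a-2 and Mir196b were listed at 0 in all libraries, and Mir196a-1, which lies before Hoxb9, at 3 and 19 in the knockout libraries against 9 and 9 in wild type. Mir615, a microRNA of neither family in the Hoxc cluster, was at 2 and 0 against 2 and 2. The library kit is one for total RNA and not for small RNA, so these values do not measure the mature microRNAs.

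Hox proteins bind DNA together with homeodomain cofactors of the Pbx, Meis and Pknox families. None of the 8 tested cofactor genes passed, and their median log2 difference was -0.20. Of the 8, 2 had an unadjusted limma p under 0.05, against 4898 of all 15058 tested genes. After rescaling by upper quartiles limma called 1 of them lower. Meis1 had 797 and 796 against 1103 and 980 (-0.38, SE 0.12, limma adjusted p = 0.076). Meis2 had 1300 and 1342 against 1562 and 1544 (-0.23, SE 0.10). Pbx2 (346 and 316 against 358 and 385) and Meis3 (180 and 205 against 220 and 236) were likewise lower in both knockout libraries. Pbx3 was the 1 cofactor higher in both, with 272 and 312 against 207 and 230 (log2 difference 0.42, SE 0.17, limma adjusted p = 0.151). Pknox1 (715 and 582 against 533 and 730) and Pknox2 (366 and 432 against 412 and 361) overlapped, and Pbx4 was at 5 or below in every library.

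Retinoic acid, Cdx factors and Gdf11 set Hox expression along the embryonic axis. Of 10 tested genes of this group, 3 rose and 1 fell (40%, against 16.3% of all tested genes), and Cdx2 and Cdx4 were at 0 in all libraries. Rarb, a retinoic acid receptor gene that is itself induced by retinoic acid, fell, with 110 and 138 normalized counts in the knockout libraries against 284 and 267 in wild type (log2 difference -1.15, SE 0.20, limma adjusted p = 0.018). The other receptor genes did not pass, among them Rara, at 424 and 452 against 328 and 324 (0.42, SE 0.13), and Rarg, at 705 and 713 against 705 and 632. Gdf11, a secreted factor that promotes posterior Hox expression in the embryo, rose from 51 and 76 to 157 and 192 (1.46, SE 0.29, limma adjusted p = 0.025). Egr2, which regulates anterior Hox genes in the hindbrain and is also expressed by macrophages, rose from 19 and 27 to 80 and 105 (1.97, SE 0.36, limma adjusted p = 0.021). All 12 macrophage markers rose in the same libraries, with a median log2 difference of 2.82. Whether the marker differences play a part in the rise of Egr2 was not tested. Rarb, Gdf11 and Egr2 were no longer called with any 1 library left out.

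Polycomb proteins keep silent Hox genes off, and Trithorax proteins keep active ones on. Of 22 tested Polycomb genes, 4 fell and 1 rose (22.7%, against 16.3% of all tested genes), and the median of the 22 log2 differences was -0.097. Cbx7 had 322 and 243 normalized counts in the knockout libraries against 857 and 558 in wild type (log2 difference -1.30, SE 0.25, limma adjusted p = 0.023), and Cbx6, another chromodomain subunit, 1576 and 1224 against 2393 and 2262 (-0.74, SE 0.14, limma adjusted p = 0.025). The subunit genes Pcgf2 (-0.66, SE 0.16) and Phc3 (-0.48, SE 0.10) fell too. The call of Pcgf2 was lost after rescaling to the same total (-0.58, limma adjusted p = 0.055). Ezh2, a Polycomb methyltransferase gene, rose from 148 and 150 to 228 and 292 (0.79, SE 0.20, limma adjusted p = 0.047). This call was lost after quantile normalization and after rescaling by upper quartiles. With any 1 library left out, none of these 5 Polycomb genes was called (limma adjusted p at least 0.052). None of the 14 tested Trithorax genes passed, with log2 differences from -0.36 to 0.34. Of the 14, 4 had an unadjusted limma p under 0.05, against 4898 of all 15058 tested genes. Kmt2a, which maintains Hox expression in many cell types, was at 5373 and 5120 against 6487 and 5925 (-0.24).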

How the data were processed

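RNA of 4 libraries (2 knockout, 2 wild type) was sequenced after ribosomal depletion with a stranded total RNA kit, per the labels' protocols. Per the submitters' processing notes, which state no roles, the tools were STAR 2.5.2b, featureCounts 1.5.1, DESeq2 1.14.1 and FastQC, and the build was mm10/GRCm38. For the annotation and the strand setting, the sources used here give nothing. The authors deposited 1 table of normalized counts rounded to whole numbers, treated here as a score, so no count model was used. Numbers skipped or doubled at a fixed spacing gave the size factors, from 0.887 to 1.158, behind the read estimates.

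Values were tested as log2(value + 1) with limma 3.58.1 (R 4.3.3), for genes with a mean of at least 10, with group as the single term, an intensity trend and Benjamini-Hochberg adjustment over 15058 genes; the threshold was 0.05. The filter was applied over all 4 libraries. The fit was tested on simulated data. GENCODE M21 (GRCm38), matched by identifier for 96% of rows, gave the exon lengths, overlaps and positions. The rule was to name all members, with values for those tested, and from each further list the called members (up to 5), otherwise the most abundant, and all cofactors; some genes that these counts include are not reported here. Hox members and lists were chosen with earlier results of these data known.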

Additional observations from a re-analysis of the deposited data

How the results depend on the processing

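Over 9 other settings with all libraries, 521 of 588 gene values kept their direction and side of the threshold, 48 lost the call, 8 gained it and 11 turned sign. Calls for Hox genes, all genes and every list fell to 0 in limma without the filter on low values and without the intensity trend. Without the filter, 5472 of 23812 genes and 7 of 31 Hox genes had an unadjusted p under 0.05. Without the trend these were 4274 of 15058 genes and 8 of 26 Hox genes. Quantile normalization turned Hoxc5 (-0.14), Hoxc6 (-0.041), Hoxc9 (-0.067), Hoxc10 (-0.093), Pknox2 (-0.013) and Gm53 (-0.15), and called 6 fibroblast, 0 rising Polycomb and 0 Schwann or neuron genes. Upper quartiles turned Hoxc5 (-0.056), Hoxc6 (-0.037), Pknox1 (-0.026) and Pknox2 (-0.030), and called 1 cofactor lower and 0 Polycomb genes higher. The same total turned Hoxaas2 (0.032), lost the call of Pcgf2, and called 5 fibroblast genes and 1 lymphocyte gene (Cd4, as did a pseudocount of 5). The causes were not tested. Same-numbered libraries correlated at 0.118 in their deviations, and only the number pairs them; with the replicate block limma called Hoxa3 too, 7 fibroblast, 3 Schwann or neuron genes and 1 lymphocyte gene.

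Leaving out 1 library gave from 0 to 718 genes higher and 0 to 197 lower, 0 to 1 Hox genes higher and 0 lower. Across lists it gave 0 to 10 macrophage, 0 to 7 endothelial, fibroblast and adipocyte, 0 to 2 Schwann or neuron, 0 to 1 axial input and 0 to 1 regional genes higher, 0 to 5 smooth muscle genes lower, and 0 otherwise. The central share differed by -0.010 to 3.25 percentage points.

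Signs turned for some uncalled genes when 1 library was left out, and their log2 differences ranged from -0.27 to 0.064 for Hoxa5, -0.54 to 0.37 for Hoxa9, -0.31 to 0.12 for Hoxb2, -0.85 to 0.00011 for Hoxb7, -0.27 to 0.31 for Hoxc5, -0.13 to 0.21 for Hoxc6, -0.12 to 0.43 for Hoxc9 and -0.26 to 0.62 for Hoxc10. They ranged from -0.18 to 0.27 for Pknox1, -0.075 to 0.16 for Pknox2, -0.35 to 0.25 for Hoxaas2, -0.11 to 0.80 for Hoxaas3, -0.16 to 1.00 for Mir196a-1 and -1.46 to 0.072 for Gm11536.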

Other observations

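Other transcription factors that mark regions of the heart outflow, neural crest, lateral mesoderm and somites moved in both directions. Of 22 tested, 4 rose and 4 fell (36.4%, against 16.3% of all tested genes), with a median log2 difference of 0.094, and Gata5 and Nkx2-5 were at 0 in all libraries. Tbx3, a T-box gene, rose from 18 and 17 normalized counts in the wild type to 104 and 100 in the knockout (log2 difference 2.48, SE 0.32, limma adjusted p = 0.011), and Hand2, a gene of the outflow tract and pharyngeal arches, from 5 and 3 to 48 and 47 (3.31, SE 0.55, limma adjusted p = 0.017). The wild-type mean of Hand2 is 4, so it passed the filter of 10 only through its knockout values, and its call is not independent of that filter. Meox2 (1.31) and Tshz2 (1.34) rose as well. Tbx18 fell from 2735 and 2661 to 1411 and 1544 (-0.87, SE 0.10, limma adjusted p = 0.0094), Foxc1 from 3592 and 2980 to 1853 and 1565 (-0.94, SE 0.14), Foxf1 from 210 and 152 to 74 and 42 (-1.66, SE 0.35) and Tshz3 from 1014 and 1138 to 496 and 687 (-0.88, SE 0.18). Without wild-type replicate 2, limma called 1 of the 8 higher and 0 lower, and without any other library 0. Fibroblast markers summed to 179729 and 190015 in these knockout libraries against 46447 and 107399 in wild type, most of it Col1a1. The part of these markers in the changes was not tested.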
